A study of Mus musculus with 3 samples.

Results

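The cells described here are hind paw fibroblasts of the mouse that were picked by 6 genes, among them Sema3d and Rbp4, and that carry the working name Sema3d+ Rbp4+ elastin-rich fibroblasts. A cell was a member when at least 3 of Sema3d, Rbp4, Spock2, Aldh3a1, Lamc3 and Irx5 had at least 1 UMI (a unique molecular identifier, 1 captured mRNA molecule), when Ptprc, Pecam1 and Ibsp had 0, and when Saa3 had under 5. Kept cells had no fewer than 500 genes and 1000 UMIs, with mitochondrial UMIs of 10% or less, and 1362 of the 18540 kept stromal cells were members, of 24485 kept cells in the series. The steady-state library (day 0) held 455 members among 7368 kept cells, and the library taken 5 days after transfer of serum from K/BxN arthritic mice (day 5) held 907 among 11172. K/BxN serum carries autoantibodies that set off a joint inflammation in the recipient. Droplet 3' libraries (10x Genomics) were built from CD45-negative cells sorted from digested paws, after skin, muscles and tendons had been taken off. Strain, genotype, age and the number of mice pooled are not given in the sources used here. The third library, CD45-positive CD11b-positive Ly6G-negative myeloid cells of day 9, held 0 members among 5945 kept cells. Members were set against the other kept cells of their library with at least 1 UMI of Pdgfra, a receptor that marks fibroblasts, which numbered 5758 at day 0 and 8599 at day 5.

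Elastic fibres give tissue its recoil. They are built from tropoelastin, the product of Eln, which is laid on a scaffold of fibrillin microfibrils and crosslinked by lysyl oxidases, and microfibril-associated glycoproteins such as that of Mfap4 bind both parts. In joints and limbs such fibres run through ligaments, tendon sheaths, capsules, vessel walls and the loose tissue under the lining. Sema3d encodes a secreted semaphorin, a class of guidance proteins for axons and vessels, and Rbp4 the carrier of retinol in blood.

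The depth was 77842586 UMIs at day 0 and 122224428 at day 5, with medians of 9802 and 9303.5 UMIs per kept cell. Each day is 1 library, so no test was run, and the day and the library cannot be told apart. Intervals in parentheses are 95% and cover counting error only, not differences between mice. Levels are CPM, UMIs per 1000000 UMIs of the cells summed. The stromal libraries shared 32 barcodes, 25 after the filter, and none was a member in both. A gene is called higher or lower where the CPM ratio was at least 1.5-fold.

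Members made up 6.18% (5.64 to 6.75) of kept cells at day 0 and 8.12% (7.62 to 8.64) at day 5. Their share of the Pdgfra cells and members was 7.32% (6.69 to 7.999) and 9.54% (8.96 to 10.1). The share was higher at day 5 by either count. Pdgfra itself, which the rule did not ask for, had a UMI in 407 of 455 members (89.5%) and 798 of 907 (88.0%). Membership rested on few molecules. After each cell was thinned to 2000 UMIs, the rule found 32 of 7316 cells (0.437%) at day 0 and 121 of 10990 (1.10%) at day 5, and the order of the days was kept. With only 2 of the 6 genes asked for, the shares were 27.0% at day 0 and 26.7% at day 5, and the order was not kept. Members were also somewhat deeper than the cells beside them, with median UMIs of 11197 and 10667 against 10132.5 and 9700. Among the highest Scrublet doublet scores stood 13.0% of day 0 members and 17.3% of day 5 members, against 6.89% and 10.1% of other Pdgfra cells. Without the cells of highest doublet score the day 5 share was 7.47%. Another 95 cells at day 0 and 186 at day 5 had 3 or more rule genes and were kept out. The osteoblast gene Ibsp kept out 81 and 133 of these, and Saa3, the acute phase protein of inflammatory fibroblasts, 0 and 39.

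Most members stood just inside the threshold. At least 4 of the 6 genes were found in 72 of 455 members (15.8%) at day 0 and in 236 of 907 (26.02%) at day 5, at least 5 in 10 and 59, and all 6 in 0 and 9. Sema3d and Rbp4 were found together in 164 members (36.0%) at day 0 and 336 (37.0%) at day 5, so most members did not carry both genes of the name. The most frequent sets were Sema3d, Rbp4 and Aldh3a1 at day 0, in 102 members (22.4%), and Rbp4, Spock2 and Aldh3a1 at day 5, in 191 (21.1%).

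The rule genes are given next by what they encode, with values that chose the cells and so are a description. Sema3d (chr5:12383385-12588948, plus strand, mm10) had a UMI in 65.1% of day 0 members and 61.1% of day 5 members, and its level was 91.7 CPM against 27.1 in other Pdgfra cells at day 0 and 87.6 against 15.5 at day 5. Rbp4 (chr19:38116629-38125281, minus strand) had a UMI in 65.9% and 69.3% of members, at 196 against 60.5 CPM and 167 against 65.0. These 2 secreted proteins thus had their mRNA in other fibroblasts too, at lower levels over all of them summed. Single clusters, of those described below, stood above the members. Over both libraries Sema3d was at 152 CPM in cluster 15, led by Clic5 and Htra4. Rbp4 was at 205 CPM in cluster 16, led by Ifit1 and Chchd10. Spock2 (chr10:60106219-60135198, plus strand), which encodes testican-2, a matrix proteoglycan of the SPARC family, stood at 72.8 against 14.6 CPM and 106 against 21.5. Lamc3 (chr2:31887291-31946539, plus strand), a laminin gamma chain of basement membranes, was found in only 6.15% and 9.70% of members, at 6.30 against 1.11 CPM and 12.3 against 1.93. Both matrix genes were somewhat higher in the day 5 members than in those of day 0. Aldh3a1 (chr11:61207537-61218421, plus strand), an aldehyde dehydrogenase, was the gene nearly all members shared, in 96.7% and 91.6%, at 304 against 140 CPM and 281 against 97.5. Irx5 (chr8:92357625-92376286, plus strand), a homeobox factor of the Iroquois family, was found in 26.8% and 31.5%, at 35.7 against 5.40 CPM and 40.6 against 5.17.

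Free RNA and other cell types gave a background for these shares. Endothelial cells (89 at day 0 and 46 at day 5, median UMIs 7139 and 8846) had no Rbp4, which allows shares of up to 3.37% and 6.52%, and Sema3d in 6.74% and 4.35%. Osteoblasts (226 and 224 cells, 7496 and 6803 UMIs) had Sema3d in 22.1% and 14.7%, Rbp4 in 18.1% and 20.1% and Spock2 in 21.2% and 33.0%, and 7.96% and 4.91% of them met the 3-gene count. The members' own shares were set by the rule and are not compared with these. In the osteoblasts Sema3d, Rbp4 and Spock2 had higher shares than in the endothelial cells. By level, as a description, Irx5 stood at 54.3 CPM in osteoblasts at day 0 and 72.5 at day 5, above the members' 35.7 and 40.6. Lamc3 stood at 7.84 and 11.9 CPM against 6.30 and 12.3 in members. Sema3d and Aldh3a1 were lower in osteoblasts than in members on both days. Rbp4 stood at 143 against 196 CPM at day 0 and 81.0 against 167 at day 5. Spock2 stood at 35.5 against 72.8 and 92.9 against 106, so Rbp4 at day 0 and Spock2 at day 5 were under 1.5-fold apart.

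As a description, each of the 6 genes was left out of the choice in turn. The 6 were put together with earlier results of these data known, so ratios above 1 are no independent sign that they go together. Cells were chosen by 3 of the other 5 genes with the same exclusions, and the gene left out was read in them, so that its own UMIs chose no cell. At day 5 the level of the gene left out was higher in the chosen cells for each of the 6. The ratio to the other Pdgfra cells was 3.24 (2.78 to 3.77) for Irx5, 3.21 (2.89 to 3.56) for Sema3d, 3.12 (2.40 to 4.02) for Lamc3, 3.07 (2.79 to 3.37) for Spock2, 2.55 (2.39 to 2.72) for Aldh3a1 and 1.74 (1.61 to 1.88) for Rbp4. At day 0 Rbp4 led with 2.64 (2.40 to 2.91), although its share of cells was 28.9% (23.0 to 35.4) against 24.9%, so the ratio lay more in the level of carrying cells than in their number. Sema3d was last with 1.66 (1.39 to 1.96). The day 0 interval of Lamc3, 1.79 (0.942 to 3.17) from 14 UMIs, included 1. The cells chosen for Sema3d had median UMIs of 11420 at day 0 and 10658 at day 5 against 10172 and 9746 in the others, and the part of depth in these ratios was not tested.

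The start regions of 3 rule genes are shown, as no sequence was at hand for Aldh3a1, Lamc3 and Irx5. The sequences are from RefSeq on GRCm38.p6, hold only bases before the listed start, and run 5' to 3' on the gene's strand. Capitals mark the one match to the motifs searched. The Sema3d window is chr5:12382916-12383165 on the plus strand, the Rbp4 window chr19:38125322-38125571 on the minus strand and the Spock2 window chr10:60106007-60106218 on the plus strand.
Sema3d: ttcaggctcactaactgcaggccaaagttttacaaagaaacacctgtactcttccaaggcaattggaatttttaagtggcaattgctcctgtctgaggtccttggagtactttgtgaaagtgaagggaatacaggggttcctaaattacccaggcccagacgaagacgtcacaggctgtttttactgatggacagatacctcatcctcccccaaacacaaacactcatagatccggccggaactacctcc
Rbp4: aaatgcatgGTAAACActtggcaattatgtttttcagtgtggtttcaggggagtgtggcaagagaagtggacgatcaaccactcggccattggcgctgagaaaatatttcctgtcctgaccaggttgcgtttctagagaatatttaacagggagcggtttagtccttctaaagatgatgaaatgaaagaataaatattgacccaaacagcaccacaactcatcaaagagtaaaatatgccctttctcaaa
Spock2: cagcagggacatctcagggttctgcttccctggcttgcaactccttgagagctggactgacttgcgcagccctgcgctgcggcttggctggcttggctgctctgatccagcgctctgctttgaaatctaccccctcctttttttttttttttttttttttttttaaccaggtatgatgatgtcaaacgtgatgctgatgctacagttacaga

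The windows of Sema3d and Rbp4 hold 250 bases and that of Spock2 212, with GC contents of 46.8%, 40.8% and 48.6%. On both strands 5 motifs were searched. The forkhead motif TGTTTAC had the one match, on the opposite strand of Rbp4 as GTAAACA, 241 bases before the start, and 3.17% of all 32851 promoter windows of 250 bases held it. TATAAA (12.4% of all windows), GGGCGG (32.7%), TGANTCA (6.75%) and GGAATG (12.6%) were not in these 3 windows. A match is a string of letters and not a measured site.

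The elastin part of the name was checked with Eln and Mfap4, which the rule did not use. Eln (chr5:134702593-134747323, minus strand) had a UMI in 148 of 455 day 0 members (32.5%) and 374 of 907 day 5 members (41.2%), against 20.2% and 23.2% of other Pdgfra cells. Mfap4 (chr11:61485431-61488900, plus strand) had one in 145 (31.9%) and 354 (39.0%), against 14.5% and 17.1%. So most members held no captured Eln or Mfap4 molecule, and the 91 day 5 members richest in each gene held 79.5% of the Eln and 63.8% of the Mfap4 UMIs. At day 0 the richest 46 members held 89.9% and 77.1%. With every cell thinned to 2000 UMIs, Eln stayed in 14.5% of members against 7.49% at day 0 and in 21.3% against 8.48% at day 5. In sum, Eln stood at 281 CPM in members against 61.0 in other Pdgfra cells at day 0, a ratio of 4.61 (4.34 to 4.89), and at 245 against 82.2 at day 5, a ratio of 2.99 (2.86 to 3.12). Mfap4 stood at 158 against 45.1 CPM (3.51, 3.25 to 3.78) and 236 against 61.1 (3.87, 3.70 to 4.05). The name describes the sums, and the data go against it as a name for each cell of the set, so the cells are called members here, by the rule alone. The endothelial cells had Eln in 61.8% at day 0 and 37.0% at day 5, and the osteoblasts in 2.65% and 2.68%.

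Both elastic fibre genes were higher in cells with more of the rule genes, a relation that the rule did not use. Among cells that pass the same exclusions, Eln at day 5 was 90.4, 78.8 and 93.6 CPM with 0, 1 and 2 rule genes, 138 just inside the threshold with 3, then 486 with 4, 894 with 5 and 516 with 6. Mfap4 went from 47.4, 63.1 and 64.6 CPM to 127, 434, 894 and 2024. The step from 2 to 3 genes was small beside the step from 3 to 4, in both genes. Day 0 had the same shape, with Eln at 60.6, 63.1, 72.1, 127, 821 and 2635 CPM and Mfap4 at 42.8, 45.0, 52.6, 114, 340 and 628 from 0 to 5 genes. The highest classes are small: 62 and 10 cells with 4 and 5 genes at day 0, and 177, 50 and 9 with 4, 5 and 6 at day 5. A single member held 174 Eln UMIs at day 0 and 344 at day 5, and its class was not looked up. The classes with 4 and 5 genes held 705 and 302 Eln UMIs at day 0 and 1133 and 488 at day 5. Col8a1, a short-chain collagen of vessel walls and other matrices, followed at day 0 (22.7, 36.1, 217 and 951 CPM from 2 to 5 genes) and less evenly at day 5 (26.5, 50.7, 70.4, 169 and 95.1 from 2 to 6). Prg4, the lubricin gene of the synovial lining, was on the other side between 0 and 3 genes, from 5892 to 977 CPM at day 0 and from 5838 to 1913 at day 5.

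**Figure D1:**
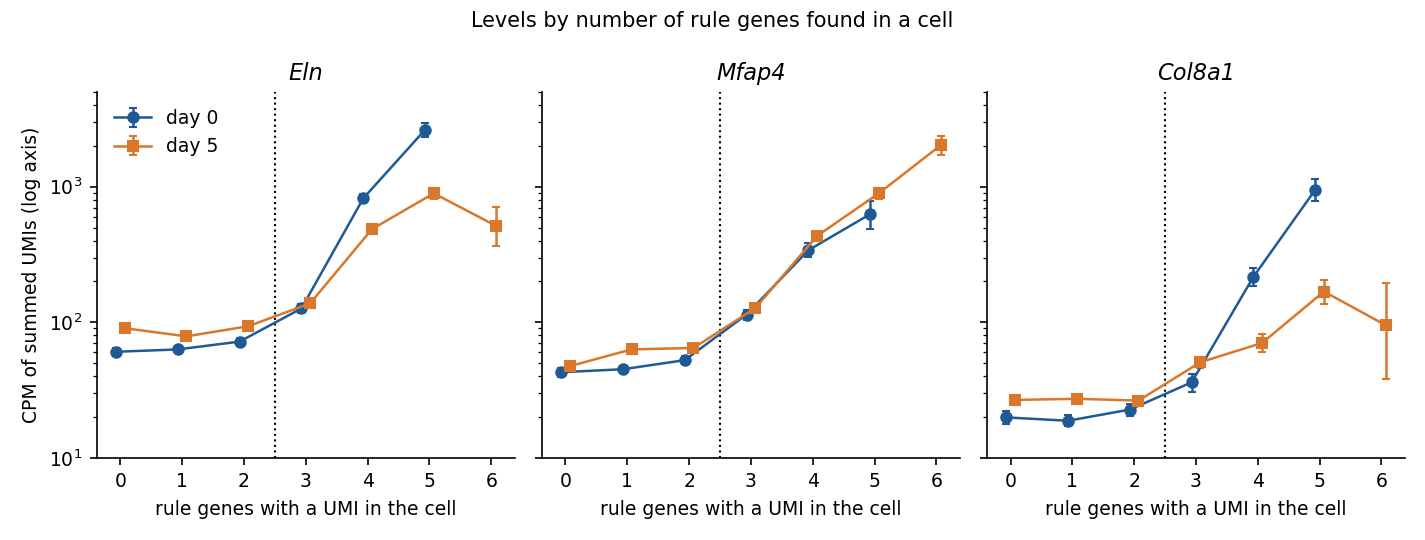
CPM (log axis, 95% counting intervals) of Eln, Mfap4 and Col8a1 in cells grouped by how many of the 6 rule genes had a UMI, with day 0 as circles and day 5 as squares; the dotted line is the threshold for members. Eln and Mfap4 stay under 100 CPM up to 2 genes and pass 300 CPM from 4 genes on, in both libraries.

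Clustering with the 6 rule genes left out spread the members widely. The Pdgfra cells and members of both libraries fell into 20 clusters, and members were found in 15 of them at day 0 and 18 at day 5. Over 5% of the members lay in each of 9 clusters at day 0 and 7 at day 5. The largest share at day 0 lay in cluster 0 with 20.4%, led by Efhd1, Dpp4 and Pi16, a gene set of progenitor-like fibroblasts. Cluster 9, led by Acta2, Sfrp4 and Tnmd, held 13.2%, cluster 6, led by Ostn, Npnt and Ptprd, 12.5%, and cluster 3, led by Angptl7, Fmod and Coch, 11.2%. The last includes genes of tenocytes. Members were 8.29% of the day 0 cells of cluster 0 and 8.03% of those of cluster 3, near their 7.32% of all Pdgfra cells and members, and 12.9% and 13.0% of those of clusters 9 and 6. At day 5 the largest share lay in cluster 17 with 17.9% (15.4 to 20.5), and cluster 1, led by Cntn1 and Lpl, held 16.9%. Members were 14.5% of the day 5 cells of cluster 1, against 9.54% of all. The rule therefore gathered cells of many fibroblast states and most cells of 1 small cluster.

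Cluster 17 is that cluster. It held 225 cells, 32 from day 0 and 193 from day 5, which were 0.515% (0.353 to 0.726) and 2.03% (1.76 to 2.33) of the Pdgfra cells and members. Members made up 25 of the 32 and 162 of the 193, or 78.1% and 83.9%, and the cluster took in 5.49% (3.59 to 8.004) and 17.9% of all members and 30.6% and 45.3% of those with at least 4 rule genes. Its leading genes were Mfap4, Eln, Rbp4, Col8a1, Sema3d, Spock2, Lamc3, Irx5, Ntng1 and Aldh3a1. The clusters were made without the 6 rule genes, but this one was picked for holding the most members with at least 4 of them. The high levels of the rule genes in it are therefore a description. Cells without Pdgfra entered the clustering only where the rule had made them members. Eln stood at 1598 CPM and Mfap4 at 1339 over the whole cluster. The next cluster by Eln, cluster 11, which S100a9 and S100a8 led, had 706 CPM. Apart from the genes of the working name, no list of cell type markers held any of its 10 leading genes, and it is given no cell type name. Its members had fewer UMIs than the others, with medians of 7465 at day 0 and 6036.5 at day 5 against 11409 and 11668. High doublet scores were found in 3 of 25 and 5 of 162 of them, or 12.0% and 3.09%, against 13.0% and 20.4% of the other members.

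The cluster held under other settings, with 1 exception. When 1409 genes were left out, namely those with a mean of at least 1 CPM that were past 1.5-fold between the days in other Pdgfra cells, a lower limit than for the counts of genes used, together with Eln and Mfap4, a cluster of 201 cells formed, 28 from day 0 and 173 from day 5, of which 196 were cells of cluster 17. This step was chosen after the data were seen. Day 5 clustered alone gave 193 cells with 162 members. With all kept cells clustered, also those without Pdgfra, the matching cluster held 40 cells at day 0 and 211 at day 5. Members were 28 (70.0%) and 162 (76.8%) of these, lower shares than in cluster 17. Day 0 clustered alone did not set these cells apart, and the richest cluster there held 464 cells and 7.91% of the members.

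**Figure D2:**
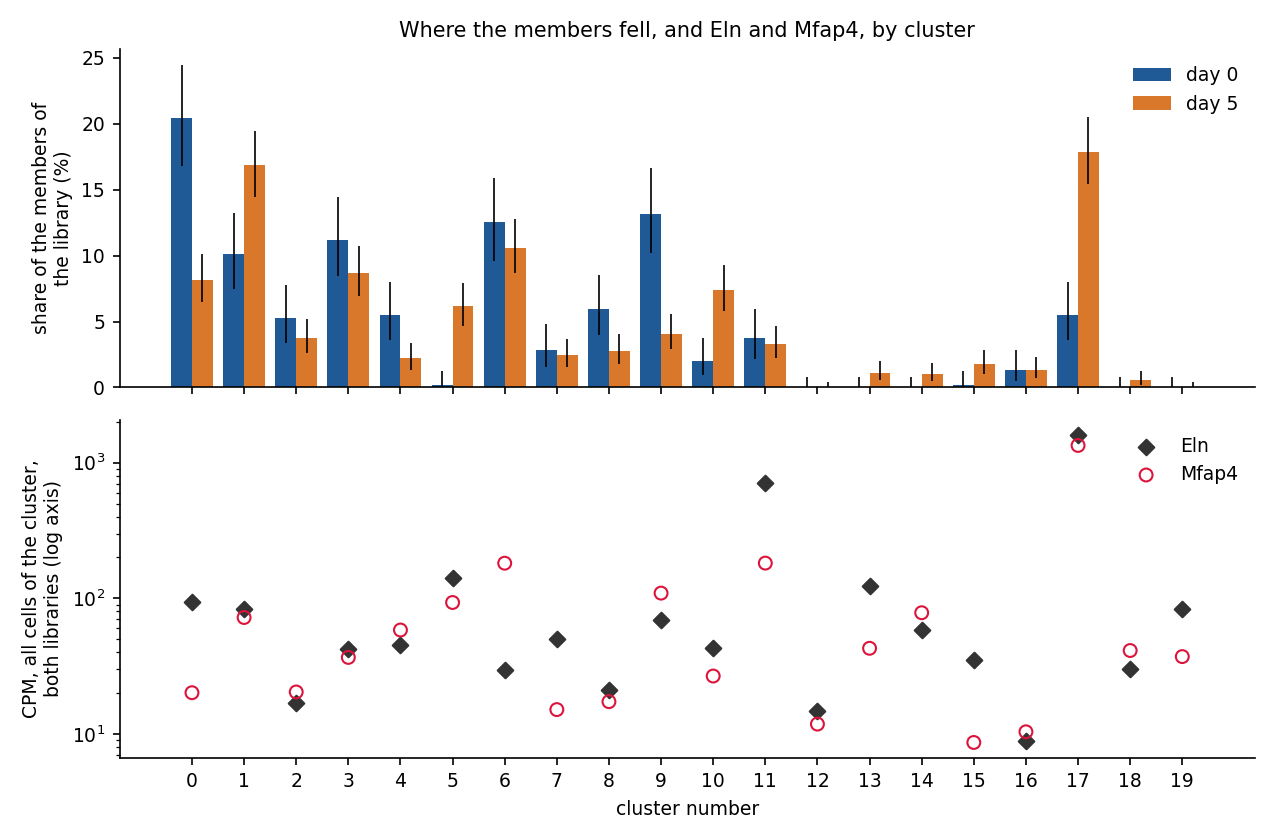
Share of each library's members in each of the 20 clusters (upper panel, bars from 0 with 95% counting intervals) and CPM of Eln and Mfap4 over all cells of the cluster (lower panel, log axis). Members are spread over most clusters, and cluster 17, with 5.49% of them at day 0 and 17.9% at day 5, has the highest Eln and Mfap4, at 1598 and 1339 CPM.

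Set against the other Pdgfra cells of their library, the members differed by few genes. At day 5, 79 of 8251 genes used (0.957%) were higher and 108 (1.31%) lower, the rule's own genes included, and at day 0, 81 (0.997%) of 8128 were higher and 75 (0.923%) lower. The median log2 ratio over all genes used was 0.03 and 0.02. Which cells formed each group moves these counts. With the same exclusions on both sides, 61 genes were lower at day 5. With 4 of 6 rule genes, 344 were higher and 217 lower at day 5, and 209 and 144 at day 0.

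Elastic fibre genes other than Eln and Mfap4 were near the level of the other fibroblasts. Of 9 core genes used at day 5, Mfap4 and Eln were higher and none was lower, and the list's median log2 ratio was 0.08. Fbn1, the main fibrillin, was at 279 CPM in members against 295 at day 5 and at 400 against 354 at day 0. Mfap5, another microfibril protein, was at 356 against 377 and at 486 against 471. Among 18 genes of fibre assembly, none was past 1.5-fold at day 5, and Fbln7 alone, a fibulin, was lower at day 0 (165 against 351 CPM). Lox, the crosslinking lysyl oxidase, stood at 325 against 372 CPM at day 5. Over all members, the assembly genes thus lacked the gap that Eln showed, while the cluster members described below had a higher level of some of them.

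**Figure D3:**
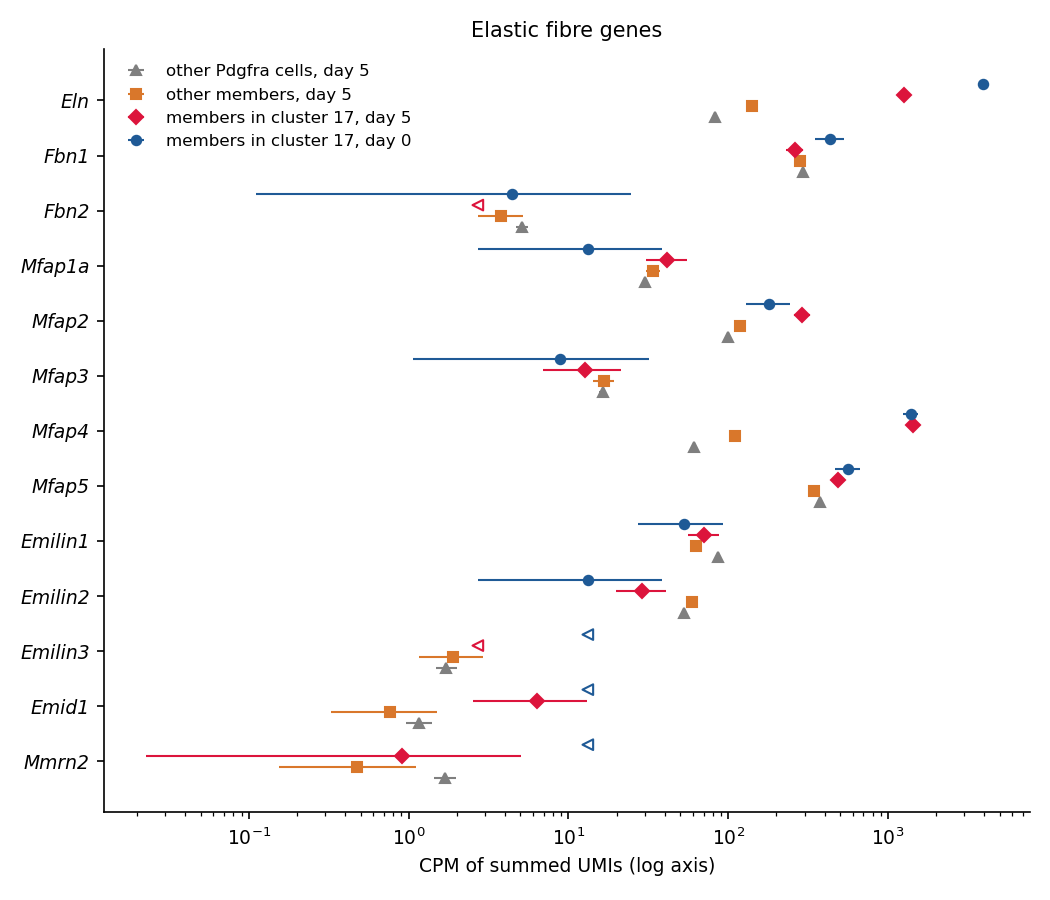
CPM (log axis, 95% counting intervals; open arrowheads are the level that 3 counts would give where a gene had 0 UMIs) of the elastic fibre core list in other Pdgfra cells, other members and cluster 17 members at day 5, and in cluster 17 members at day 0. Eln and Mfap4 reach 1249 and 1439 CPM in the day 5 cluster members, while Fbn1 and Mfap5 lie between 260 and 559 CPM in the groups shown.

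Protease inhibitors were among the leading genes. Timp3, an inhibitor of metalloproteinases that is held in the matrix, stood at 917 CPM in members against 476 at day 0 and at 694 against 355 at day 5, with ratios of 1.93 (1.87 to 1.98) and 1.95 (1.91 to 2.00). It had a UMI in 93.0% and 90.3% of members against 81.1% and 72.0%. Pi15, a secreted peptidase inhibitor, was at 77.0 against 50.2 CPM and at 97.4 against 41.5, with ratios of 1.53 (1.38 to 1.69) and 2.34 (2.19 to 2.50). Timp1, an inhibitor raised in inflammation, was on the other side, at 101 against 177 and 258 against 685 CPM. Of the 11 list genes used at day 5, Pi15, Timp3 and Slpi were higher and Timp1 lower. Slpi, a leukocyte protease inhibitor, rested on 19 of 907 members, 1 of which held 41.96% of its UMIs, and its ratio was 0.865 with 2 of 6 rule genes.

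Matrix genes were mixed. Col8a1 was at 81.5 against 24.5 CPM at day 0 (3.33, 2.99 to 3.69) and 60.4 against 30.0 at day 5 (2.02, 1.86 to 2.19), and of 16 collagens used it alone was higher in both libraries, while Col27a1 alone was lower. Chad, chondroadherin, which binds collagen and integrins, was at 529 against 255 CPM and 342 against 186. Kera, keratocan, a proteoglycan of tendon and cornea, was at 57.2 against 27.6 and 27.9 against 17.6. Adamtsl1, a secreted matrix protein related to the ADAMTS proteases, was found in 54.1% of day 5 members against 27.9% and stood at 85.2 against 42.1 CPM. Coch, the gene of cochlin, had ratios of 2.07 and 2.16 that rested on few cells. It was found in 6 of 455 and 29 of 907 members, and 1 cell held 57.4% of its day 0 UMIs.

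Retinoid genes did not follow Rbp4. Of 15 used at day 5, Crabp1 and Adh7 were higher and Crabp2, Aldh1a2 and Cyp26b1 lower. Adh7, an alcohol dehydrogenase that oxidises retinol, was at 50.04 against 27.8 CPM at day 0 and 59.8 against 35.0 at day 5. Crabp1, a binding protein for retinoic acid, was at 10.8 against 3.32 and 14.6 against 6.21, found in 56 of 907 day 5 members, and its day 5 ratio was 0.571 with 4 of 6 rule genes. Among semaphorins and their receptors, none of 12 genes used at day 5 or 11 at day 0 was past 1.5-fold besides Sema3d itself, which was left out as a rule gene. Of 16 laminin and basement membrane genes at day 5, Lama3 alone was higher, at 16.9 against 8.18 CPM.

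Few patterning factors differed. Osr1, a zinc finger factor of limb connective tissue, was at 119 against 89.4 CPM at day 0 and 215 against 115 at day 5 (1.87, 1.79 to 1.95), and it was the 1 higher gene of 21 in its list at day 5. None of the 8 Hox genes used at day 5 was past 1.5-fold, with a list median log2 ratio of 0.31. The 5' Hox genes Hoxd11 (71.5 against 49.8 CPM), Hoxd13 (88.4 against 61.8) and Hoxa13 (42.0 against 30.2), which pattern the outer limb, were each somewhat higher, and at day 0 they stood at 60.4 against 57.0, 69.1 against 64.3 and 39.5 against 37.8.

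Wnt genes differed more at day 0. Of 15 used, Sfrp2, Wnt2, Wif1, Sfrp4, Axin2, Rspo3, Wnt9a and Dkk2 were higher and none lower, with a list median log2 ratio of 0.60 against 0.02 over all genes. Over all genes used at day 0, 0.997% were higher and 0.923% lower. Sfrp2, a secreted Wnt modulator, was at 202 CPM against 50.3, and 81 of 455 members carried it. At day 5 Wif1 and Wnt5a were higher among 12 used, and Sfrp2 was at 230 against 178. Wif1, a secreted Wnt inhibitor, was at 91.0 against 49.6 and 73.6 against 46.3 CPM. Between the days Sfrp2 thus differed mainly in the other Pdgfra cells.

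Inflammatory genes were lower in members at day 5. Over all genes used, 1.31% were lower and 0.957% higher. Of 13 acute phase genes used, 9 were lower and Slpi, which rests on the few cells given above, was higher, with a median log2 ratio of -0.83, and of 14 chemokine genes 6 were lower and none higher, with -0.47. The rule excluded cells with 5 or more UMIs of Saa3, an acute phase gene, so part of this was chosen. With the same limit on the other Pdgfra cells, 4 of 12 acute phase genes and 4 of 14 chemokine genes were lower, with medians of -0.47 and -0.39. Lcn2, lipocalin 2, which binds bacterial siderophores, was at 122 against 347 CPM, a ratio of 0.353 that became 0.573 with the same exclusions. Ccl2, a chemokine for monocytes, was at 89.0 against 251 CPM, with ratios of 0.354 and 0.485. Cxcl5, a chemokine for neutrophils, was at 28.1 against 90.8. Among the other named genes on this side, Bglap, Bglap2 and Spp1 are genes of bone cells, which the Ibsp exclusion removed from the members only. Bglap was 10.2-fold lower in members at day 5 and had a ratio of 1.05 with the same exclusions. Mmp13, a collagenase, was 16.0-fold lower and had a ratio of 0.307 with the same exclusions.

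The remaining genes that led at day 5 were Tsc22d3, Clec14a, Stk17b, Ccdc3 and Dbp. Tsc22d3, a leucine zipper gene that glucocorticoids induce, was at 433 against 257 CPM at day 5 (1.69, 1.64 to 1.74) and at 177 against 161 at day 0 (1.10, 1.03 to 1.17). Dbp, a clock-controlled transcription factor, was at 53.7 against 33.0 and at 33.2 against 31.4. Clec14a, a lectin-like membrane protein best known from endothelium, was at 67.1 against 36.4 and at 31.1 against 25.6. The kinase gene Stk17b stood at 56.5 against 34.2 and 41.3 against 26.7. Of these, Stk17b alone was past 1.5-fold in both libraries.

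**Figure D4:**
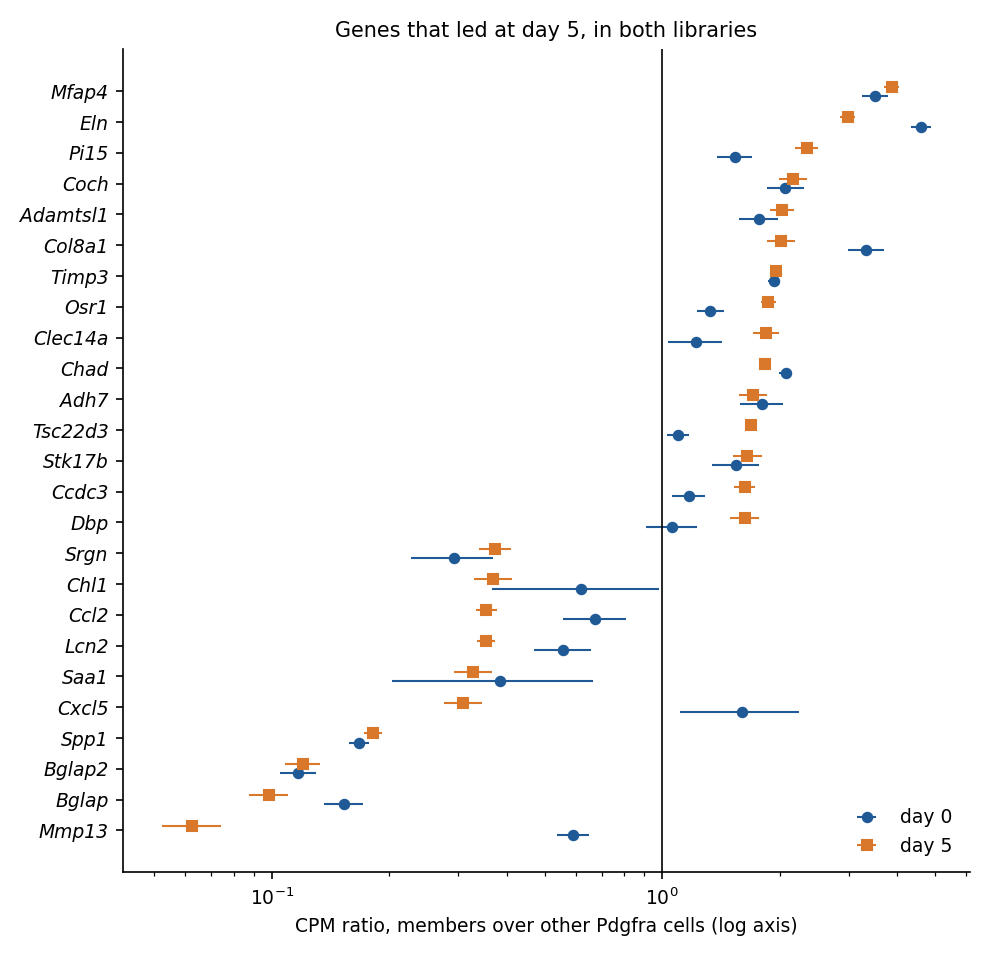
CPM ratio of members to other Pdgfra cells (log axis, 95% counting intervals) for the named genes with the largest and smallest ratios at day 5, with the day 0 ratio beside each. Mfap4 and Eln lead, at 3.87 and 2.99 at day 5 and 3.51 and 4.61 at day 0, and Mmp13, Bglap and Bglap2, of which the last 2 are bone cell genes, are the lowest at day 5.

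Among all genes with at least 20 CPM in members, those that met the measure of likeness to the rule genes, 2-fold or more higher in members in both libraries and ordered by the day 5 ratio, were Mfap4, Eln, Gsta3, Coch and Col8a1. Gsta3, a glutathione S-transferase, was at 26.1 against 12.5 CPM at day 0 and 31.9 against 12.2 at day 5, and its day 0 ratio was 0.827 with 4 of 6 rule genes. The day 5 ratio of Coch was 0.980 without the highest doublet scores.

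Eln and Mfap4 were highest in cluster 17 and were not limited to it. Without the cluster, the members' ratio to other Pdgfra cells was 2.13 for Eln and 2.39 for Mfap4 at day 0, and 1.70 and 1.80 at day 5. The 25 cluster members of day 0 had 3933 CPM of Eln against 130 in the other members, and the 162 of day 5 had 1249 against 140. Mfap4 was at 1383 against 108 and 1439 against 110 CPM. Mfap4 was found in 24 of 25 and 135 of 162 cluster members and Eln in 24 and 115, so both marked most cells of the cluster. A single cell held 19.5% of the Eln UMIs of the cluster members at day 0 and 24.9% at day 5.

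The comparison of cluster members with other members is a description, since the cells were clustered on these genes, and its named genes were chosen after their values were seen. At day 5, 792 of 6407 genes (12.4%) were higher and 506 (7.9%) lower in the cluster members, with a median log2 ratio of 0.09. At day 0, on 227081 UMIs in all, 207 of 1630 genes (12.7%) were higher and 169 (10.4%) lower. These shares are not compared with those of all members against other Pdgfra cells. The cluster members hold fewer UMIs, fewer genes were used, and the clustering itself set the cells apart.

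The rule genes were stronger in the cluster. Sema3d was at 339 CPM at day 0 and 329 at day 5 against 81.4 and 62.2 in the other members, and Rbp4 at 1814 and 486 against 129 and 134. Sema3d was found in 22 of 25 and 134 of 162 cells. Lamc3 was at 48.4 and 69.5 against 4.56 and 6.26 CPM. Part of this gap follows from the rule, which chose both groups by these genes.

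Besides the elastic fibre genes, genes of adhesion, guidance and proteolysis led the cluster. Spint2, a membrane inhibitor of serine proteases, was at 50.6 against 2.28 CPM at day 5 (22.2, 13.5 to 37.4) and 39.6 against 1.82 at day 0. Ntng1, netrin G1, a membrane-anchored guidance protein, was at 67.7 against 4.37 (15.5, 10.6 to 22.9) and 39.6 against 4.37. Pappa2, a protease that cleaves IGF binding proteins, was at 53.3 against 6.45 and 66.1 against 11.5. These genes were sparse, with Spint2 in 45, Ntng1 in 49 and Pappa2 in 26 of the 162 cells. F2r, the thrombin receptor PAR1, was at 96.6 against 18.7 CPM at day 5. Lmcd1, a LIM domain protein, was at 85.8 against 11.4, and Crispld1, a secreted cysteine-rich protein, at 154 against 23.7.

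Matrix genes stood on both sides. Among all genes used at day 5, 12.4% were higher and 7.9% lower in the cluster members. Mfap2, a microfibril protein, was at 289 against 119 CPM at day 5, and of the 8 core elastic fibre genes used Mfap4, Eln and Mfap2 were higher and Emilin2 lower. Ltbp1, which holds latent TGF-beta on microfibrils, was at 349 against 144 and Lox at 536 against 303. Fbln5, a fibulin needed for fibre assembly, was at 348 against 265 CPM at day 5 and 383 against 179 at day 0. Lox was at 881 against 178 at day 0. Fbn1 was at 260 against 282 at day 5, and Efemp1, a fibulin, was at 24.4 against 163. Mgp, an inhibitor of calcification in vessels and cartilage, was at 7194 against 2652 CPM at day 5 and 6183 against 1712 at day 0. Timp3 was at 1713 against 587 and 3404 against 814, and found in 158 of 162 and 25 of 25 cells. Ccn2, a matricellular growth factor, was at 628 against 158 and 1938 against 227. Lower were 9 of 16 collagens, with Col1a1 at 1280 against 2425 CPM and Col12a1 at 11.7 against 58.1, and 11 of 22 matricellular genes. Postn, periostin, was at 9.93 against 373 CPM and found in 8 of 162 cells against 373 of 745. At day 0 Postn was at 4.40 against 415 CPM.

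Part of the limb factors and Hox genes were past 1.5-fold in the cluster. Of 18 limb factors used at day 5, 8 were higher and 3 lower (median log2 ratio 0.47), and of 7 Hox genes 5 were higher and none lower (0.64), beside 12.4% higher and 7.9% lower among all genes used. Osr1 was at 532 against 181 CPM at day 5 and 361 against 109 at day 0, and Foxf2, a forkhead factor of mesenchyme, at 31.6 against 7.21 and 66.1 against 6.92. Hoxd11 was at 158 against 62.4 CPM at day 5 and at 159 against 56.3 at day 0. Tbx18, a T-box factor, was at 65.0 against 26.3 and 57.2 against 18.9. Pdgfrb, the PDGF receptor of mural cells and fibroblasts, was at 328 against 118 and 216 against 91.1. The summed level of 8 mural markers was 69.5 CPM in the day 5 cluster members and 85.8 in the other members, with 3 of the 8 at 0 in the former. At day 0 it was 127.7 and 86.2 CPM, with 5 of the 8 at 0 in the cluster members, and the part of mural cells was not tested.

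Immune genes were low in the cluster. Among all genes used at day 5, 7.9% were lower and 12.4% higher in the cluster members. Of 11 acute phase genes used at day 5, 10 were lower and Chil1 higher (median log2 ratio -2.26), and of 12 chemokine genes 9 were lower and Ccl19 higher (-2.68). The lists of complement (6 of 9 lower), cytokine (7 of 10) and NF-kB genes (7 of 13) were on the same side. Lcn2 was at 1.81 CPM in 2 of 162 cells against 135 CPM, and Ccl2 at 2.71 in 3 cells against 98.0. Complement C3 was at 458 against 2049 CPM and C4b at 39.7 against 317. Ccl19, a chemokine for lymphocytes and dendritic cells, was at 441 against 224. At day 0 Lcn2, Ccl2 and Ccl7 had 0 UMIs in the 25 cluster members, which allows up to 13.2 CPM, against 27.5, 22.6 and 33.5 CPM in the other members. For Wnt genes, 6 of 9 were lower, and Sfrp2 was at 2.71 CPM in 3 of 162 cells against 254.

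**Figure D5:**
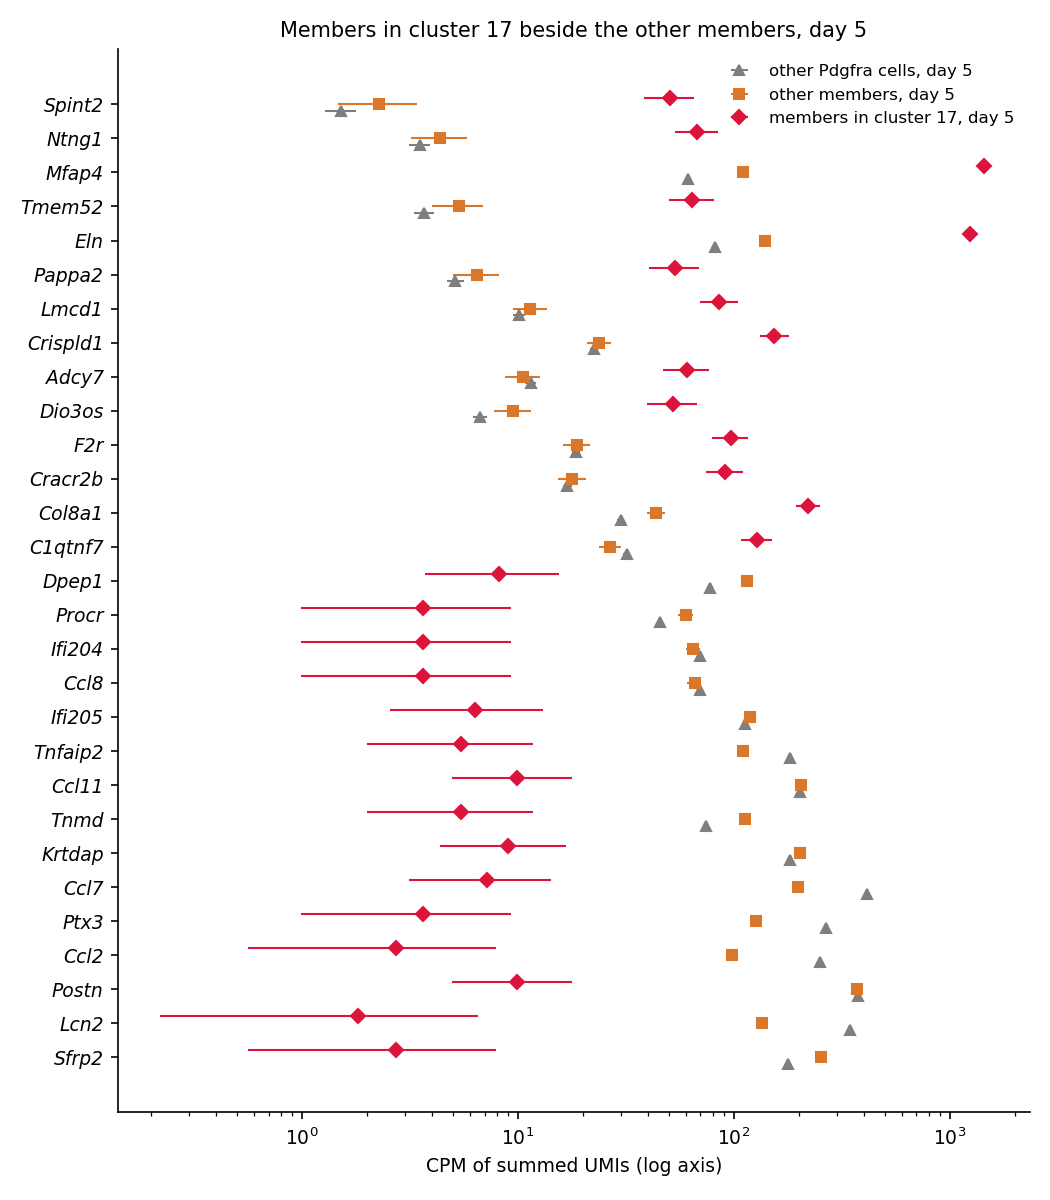
CPM (log axis, 95% counting intervals) at day 5 of genes with the largest and smallest ratios of cluster 17 members to other members, with other Pdgfra cells beside them. Spint2 and Ntng1 reach 50.6 and 67.7 CPM in the cluster members, while Sfrp2 and Postn, at 254 and 373 CPM in the other members, lie at 2.71 and 9.93.

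Between the days, 307 of 8248 genes (3.72%) were higher and 301 (3.65%) lower in the day 5 members than in the day 0 members. The other Pdgfra cells had 239 (2.92%) and 258 (3.16%) of 8171. The genes that led were those of the inflamed joint, and the other Pdgfra cells of the same libraries had larger ratios for most of them. The difference between the 2 ratios was not tested. Angptl4, a lipase inhibitor, was at 7.52 CPM in day 0 members and 64.7 in day 5 members, 8.61-fold (6.33 to 12.0), and 12.7-fold in the other Pdgfra cells. Ccl7, a monocyte chemokine, went from 32.2 to 181 CPM, 5.61-fold against 6.67-fold. Ptx3, a pentraxin of innate defence, went from 22.9 to 115, 5.02-fold against 8.35-fold. Lcn2 went from 26.4 to 122, 4.63-fold against 7.31-fold. Of 12 acute phase genes 9 were higher and none lower in members, with a median log2 ratio of 1.11 against 2.25 in the other Pdgfra cells over 13 genes. The Saa3 limit kept 39 cells out at day 5 and 0 at day 0, and its part in this gap was not tested.

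Other genes are given with the ratio of both sets side by side. Mt2, a metallothionein, went from 531 to 1448 CPM in members (2.73-fold) and 3.75-fold in other Pdgfra cells, Ggt5, a gamma-glutamyl enzyme, from 23.3 to 67.6 (2.90-fold against 2.93-fold), and Ccl19 from 98.0 to 245 (2.50-fold against 2.77-fold). On the low side Tmem100, a membrane protein, went from 269 to 71.3 CPM, 3.78-fold lower in members and 3.05-fold lower in the others. Sfrp4 went from 347 to 124 (2.79-fold lower against 1.95-fold). Spon2, a secreted matrix protein, was 3.56-fold lower in members and 2.30-fold in the others. The genes lowest at day 5, Cytl1 (8.38-fold) and Mmp13 (7.45-fold), rested on few cells: at day 0, 1 cell held 73.4% of the members' Cytl1 UMIs and 1 cell 78.2% of their Mmp13 UMIs. Sterol synthesis genes were lower in 9 of 12 in members (median log2 ratio -0.77) and in 4 of 12 in the other Pdgfra cells (-0.44). Over all genes used, 3.65% were lower in members and 3.16% in the other Pdgfra cells. Insig1, a sterol sensor, went from 49.7 to 23.6 CPM.

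Eln and Mfap4 were under 1.5-fold apart between the days in the sums. Eln was at 281 and 245 CPM in members and Mfap4 at 158 and 236. In cluster 17, on 25 and 162 members, Eln was 3933 CPM at day 0 and 1249 at day 5, and Mfap4 1383 and 1439. Outside the cluster Eln was 130 and 140 and Mfap4 108 and 110. Of 1626 genes used in the cluster members, 110 (6.77%) were higher at day 5 and 192 (11.8%) lower. In the members outside it these were 288 (3.51%) and 316 (3.85%) of 8210, from more UMIs and more genes, so the shares are not compared. Tsc22d3 led, at 150 CPM at day 0 and 1113 at day 5, 7.43-fold (5.29 to 10.8), found in 14 of 25 and 148 of 162 cells. It was 2.03-fold (1.89 to 2.18) outside the cluster. Gas6, a ligand of the TAM receptors for clearing dead cells, went from 823 to 2351 CPM (2.85-fold, 2.46 to 3.33) in the cluster and from 560 to 1110 outside. Col8a1 went from 1092 to 220 CPM and Ccn2 from 1938 to 628, and in the 25 day 0 cells 1 cell held 25.8% of the Col8a1 and 23.6% of the Ccn2 UMIs.

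Marker lists were summed over members, and the rule itself set Ptprc, Pecam1 and Ibsp to 0 in them. All 10 fibroblast markers were found in them, with summed levels of 46355 and 43250 CPM, 34393 and 39544 in the cluster members. Of 9 leukocyte markers, Ptprc among them, 7 were at 0 in day 0 members and 2 in day 5 members, with sums of 0.700 and 2.83 CPM. Osteoblast markers, Ibsp among them, summed to 237 and 143 CPM against 1507 and 1161 in other Pdgfra cells, and lining markers to 3274 and 3758 against 6831 and 5799. Tenocyte markers summed to 2118 and 1370 CPM in members against 1398 and 1157 in other Pdgfra cells, with none of the 9 at 0 in members. In the cluster members they summed to 1792 at day 0 and 744 at day 5. Dermal markers summed to 268 CPM in day 5 members against 211, and Schwann markers to 73.1 against 58.0. Most of each sum was 1 gene, Ntn1 at 155 against 121 CPM and S100b at 57.0 against 48.7. The Schwann markers Sox10 and Foxd3 were at 0 in day 5 members. The part of these cell types in the members' values was not tested.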

How the data were processed

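The authors deposited UMI counts per gene and cell for each library, as matrices of Cell Ranger 6.0.1 per the file headers, on mm10 per the labels. Seurat 4.3.0 is named in the submitters' processing notes without a role. The 2 stromal libraries (day 0 and day 5, 1 each) gave the members, and the myeloid library was only searched for them. Replicate libraries were not part of the design, so no p-value was computed and each ratio compares 2 libraries or 2 sets of cells within a library.

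UMIs were summed over cells and scaled to CPM. Poisson, Clopper-Pearson and conditional binomial intervals (95%) were used for levels, shares and ratios. A gene was used where its mean was at least 10 CPM and at least 20 UMIs were expected. A gene without a UMI in a group was given the level that 3 counts allow. Pdgfra cells and members were clustered (Leiden, resolution 1.0) with scanpy 1.11.5 and leidenalg 0.10.2. Scrublet's own threshold marked under 0.5% of cells and was not used; the highest doublet scores were removed in an alternative only. Scaling by edgeR 4.0.16 (TMM) and DESeq2 1.42.0 (size factors), other rule thresholds, thinning, cell filters and gene filters were the other alternatives. The ratio step was tested on simulated sums, and the clustering was not tested on simulated data.

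Named genes were the rule genes and the given markers, the 15 highest and 10 lowest ratios of members to other Pdgfra cells at day 5 with at least 50 CPM, the 10 highest and 10 lowest between the days, up to 3 high and 2 low genes of each list, and the 10 most alike in both libraries. Genes named for the cluster were added after the data were seen. Some genes that this rule names are not reported here. The members and lists were chosen with earlier results of these data known. Gene coordinates are those of mm10, and promoter sequences are RefSeq's on GRCm38.p6.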

Additional observations from a re-analysis of the deposited data

Results flagged for a closer look

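For 2 genes the members were past 1.5-fold on opposite sides of the other Pdgfra cells in the 2 libraries, and the difference was not tested. Cytl1, a secreted cytokine-like protein of cartilage, had a ratio of 2.31 at day 0 and 0.425 at day 5, so the day 5 ratio was 0.184 of the day 0 ratio. A single cell held 73.4% of its day 0 UMIs in members, and with the same exclusions on both sides the day 5 ratio was 1.00. Crabp2, a binding protein for retinoic acid, was at 19.1 against 8.91 CPM at day 0 (2.14) and at 9.27 against 20.3 at day 5 (0.457), so the day 5 ratio was 0.213 of the day 0 ratio. It had a UMI in 35 of 455 members at day 0 and 39 of 907 at day 5.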

How the results depend on the processing

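No paired analysis was possible because each group has 1 library. The share of members depended on the rule: at day 0 it was 27.0% with 2 of 6 genes, 0.977% with 4 and 0.437% after thinning, and 3.00%, 2.96%, 3.35%, 1.14% and 5.05% without Sema3d, Rbp4, Spock2, Aldh3a1 and Irx5. At day 5 it was 26.7%, 2.11% and 1.10%, then 4.92%, 4.22%, 4.35%, 2.70% and 6.70%, 7.47% without the highest doublet scores and 6.67% outside the Eln and Mfap4 cluster. Of genes past 1.5-fold in members against other Pdgfra cells at day 5, 4 of 6 rule genes gave 344 higher and 217 lower, thinning 244 and 227, and no gene filter 4730 and 1781. The doublet scores gave 129 higher, the mean of cell CPM 122 higher and the same exclusions 61 lower. At day 0, 2 of 6 genes gave 34 higher, 4 of 6 gave 209 and 144, thinning 138 and 122, and no filter 5064 and 1624. Between the days, no filter gave 2437 higher and 2582 lower. The cause of these shifts was not tested. Ratios on the other side of 1 at day 5 were Coch (0.980, doublet scores), Bglap (1.05) and Cytl1 (1.00) with the same exclusions, Slpi with 2 of 6 genes (0.865) and Crabp1 with 4 (0.571). At day 0 the same exclusions gave Mmp13 8.89, Bglap 1.40, Bglap2 1.04, Spp1 1.83, Slit2 1.38, Tnc 1.77 and Tnfrsf11b 1.33, 2 of 6 genes gave Cytl1 0.847, and 4 of 6 gave Cytl1 0.543 and Gsta3 0.827. Between the days, Spp1 was at 1.02 after thinning and 1.10 as the mean of cell CPM, Igfbp3 at 1.10 with 2 of 6 genes, and Cyp1b1 at 0.743, Smoc1 at 0.990 and Inhba at 1.35 with 4. With 25 cluster members at day 0, a gene at 0 there may stand at up to 13.2 CPM.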

Other observations

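Some clock genes, chosen after their values were seen and from no fixed list, are given for the cluster 17 members. At day 5 Dbp was at 121 CPM in the cluster members against 46.6 in the other members, and at day 0 at 61.7 against 32.1. Hlf, a related clock output factor, was at 149 against 48.2 and at 61.7 against 36.8. Nr1d1, the repressor REV-ERB alpha, was at 222 against 85.6 and at 163 against 93.7. Tef, of the same family as Dbp, was at 103.8 against 45.5 and at 52.8 against 42.3. Per1, a core clock gene, was at 36.1 against 35.1 and at 66.1 against 55.0, nearly level in both groups. The hours at which the paws were taken are not given in the sources used here.

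Haemoglobin mRNA differed between members and other Pdgfra cells at day 5. The summed level of 5 erythroid genes was 2.23 CPM in day 5 members and 258 in other Pdgfra cells, against 9.10 and 10.7 at day 0. The cells that held these UMIs were not counted, so the sums may rest on few cells. The part of red cells or free RNA was not tested.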
